A study of Mus musculus with 6 samples.

Results

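The miR-30 family was examined here through 7 mature miRNAs: the 5p arms mmu-miR-30a-5p, mmu-miR-30b-5p, mmu-miR-30c-5p, mmu-miR-30d-5p and mmu-miR-30e-5p, and the more abundant 3p arms, mmu-miR-30a-3p and mmu-miR-30e-3p. They were taken by name from the 685 mature miRNAs listed in the series, and all 7 were listed in every library. The treated group was N2a cells, a mouse neuroblastoma line, differentiated with 10 µM retinoic acid over 96 h in medium with 2% serum and then given 5 µM RSL3 for 24 h. The control group was the same retinoic acid-differentiated line given DMSO, and each group had 3 small RNA libraries. RSL3 inhibits GPX4, the peroxidase that clears lipid peroxides, and is used to induce the iron-dependent death called ferroptosis. All libraries come from 1 transformed cell line, and whether replicates were grown separately is not in the labels, so a p-value here reflects spread between libraries that could be technical.

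A mature miRNA guides an Argonaute protein to messenger RNAs that pair with its seed, the stretch of bases near its 5′ end. Each hairpin precursor is cut by Drosha and Dicer into a duplex of a 5p and a 3p arm, of which 1 is usually kept as the guide and the other, the passenger, is mostly lost. The miR-30 family is defined by a seed shared by its 5p arms, so its members are expected to read many of the same target sites. In human cells miR-30a is known to repress the autophagy gene BECN1, and miR-30 members have been described as restraints on the transcription factor Snail, which drives loss of epithelial character.

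RefSeq's miRNA table (GRCm38.p6) held a sequence for 5 of the 7 members, and these are shown because the shared seed defines the family and the near-identity of some arms limits how reads can be told apart. Each is written 5′ to 3′ with bases 2 to 8, the seed, in capitals.
miR-30a-5p: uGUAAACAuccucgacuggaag
miR-30e-5p: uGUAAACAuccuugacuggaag
miR-30c-5p: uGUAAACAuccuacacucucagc
miR-30a-3p: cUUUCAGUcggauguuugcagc
miR-30e-3p: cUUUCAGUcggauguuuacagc
The 3 guides shown carried the seed GUAAACA, and both 3p arms carried UUUCAGU. Counted from the 5′ end of the first-named arm, miR-30a-5p differed from miR-30e-5p at 1 position (C13U) and from miR-30c-5p at 5 of 22 aligned positions. The miR-30a-3p and miR-30e-3p arms also differed at 1 position (G18A). How many mismatches the read alignment allowed is not given in the sources used here, so the split of reads between miR-30a and miR-30e arms is uncertain. No 2 miR-30 entries had read numbers within 1% of each other in all 6 libraries. That comparison can find only entries given the same reads, and cannot show whether part of the reads of 1 arm were given to another.

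The only other RefSeq mouse miRNA with the seed GUAAACA among 1679 mature names was miR-384-5p, from chromosome X, with the sequence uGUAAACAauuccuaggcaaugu. RefSeq's table held no miR-30b or miR-30d arm, so other carriers of the seed could be missing from it. The miRNA miR-384-5p was found by its seed and is no member. Its level was 25.9, 28.9 and 25.7 CPM in RSL3 libraries 1 to 3, against 26.2, 25.7 and 29.7 CPM in DMSO libraries 1 to 3.

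The members come from 6 genes that form 3 pairs of neighbours in GRCm38. The Mir30a hairpin lies on the plus strand at chr1:23272269-23272339, where GENCODE vM21 has no other gene, and Mir30c-2 lies 19361 bases further on at chr1:23291701-23291784, in an exon of the lincRNA Gm27028. Mir30e at chr4:120772606-120772697 and Mir30c-1 at chr4:120769534-120769622 lie 2983 bases apart on the minus strand in introns of Nfyc, a subunit of the CCAAT-binding factor NF-Y. A further gene, Mir30f, is annotated opposite Mir30e at the same coordinates on the plus strand, and miR-30f is not analysed here. Mir30b at chr15:68337415-68337510 and Mir30d at chr15:68341208-68341289 lie 3697 bases apart on the minus strand. The annotation places Mir30b in an exon of the processed transcript Gm26621, and Mir30d in exons of the lincRNA Gm20732 and of Gm37296. Both miR-30c genes give the same 5p arm, so miR-30c-5p sums over 2 loci, whereas the 3p arms miR-30c-1-3p and miR-30c-2-3p are listed separately.

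The Mir30a and Mir30e hairpins are shown because both arms of each are members and their arm balance is described further on. The mature arms are in capitals, 5p first.
Mir30a: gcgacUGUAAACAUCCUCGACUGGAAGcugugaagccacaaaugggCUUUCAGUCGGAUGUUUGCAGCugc
Mir30e: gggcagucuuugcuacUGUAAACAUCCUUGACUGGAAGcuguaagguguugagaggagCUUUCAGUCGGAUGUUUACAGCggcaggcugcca

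Levels are given in the authors' normalised CPM, that is, the reads of a miRNA scaled by the total of the listed miRNA reads and a library factor. The listed miRNAs held 3406276 to 4989380 recovered reads per RSL3 library and 4306460 to 6058006 per DMSO library. Among 11 neuronal miRNAs all were listed. They summed to 208266 to 262784 CPM in RSL3 and 243664 to 328858 CPM in DMSO libraries. Most of that was miR-7a-5p, at 163393 to 267327 CPM, and miR-7b-5p, at 22880 to 35743 CPM. Others were far lower, with miR-9-5p at 2781 to 5278 CPM, miR-124-3p at 135 to 221 CPM and miR-212-3p at 53.3 to 59.9 CPM. Summed levels over 6 libraries were 35993 to 39200 CPM for 9 endothelial, fibroblast and muscle miRNAs (mostly miR-143-3p). They were 119 to 201 CPM for the 5 of 8 blood and serum miRNAs that were listed. The 4 of 7 epithelial miRNAs that were listed summed to 362 to 462 CPM, mostly miR-203-3p at 343 to 449 CPM. The 3 glial ones summed to 137 to 190 CPM, mostly miR-219a-2-3p at 119 to 176 CPM. The 9 endothelial, fibroblast and muscle miRNAs summed to 36854 to 38020 CPM in RSL3 and 35993 to 39200 CPM in DMSO libraries. Of these, 8 had a negative log2 fold change, where 49.8% of all miRNAs had one, and the median was -0.34. In limma 4 were lower and 1 higher at an unadjusted p under 0.05, against 8.41% lower and 8.86% higher of all miRNAs. Limma and edgeR called 0 of these 9, and DESeq2 called 2, against 6.01% of all miRNAs. The 2 were miR-145a-5p, lower (limma log2 fold change -0.52), and miR-126a-3p, higher (0.38). Log2 fold changes were negative in 6 of 11 neuronal, 1 of 5 blood and serum, 2 of 4 epithelial and 1 of 3 glial miRNAs. In those 4 lists limma, edgeR and DESeq2 called 0. Of all miRNAs limma called 0.601% higher and 0.150% lower, edgeR 0.901% and DESeq2 6.01% in either direction. At an unadjusted p under 0.05 in limma, 1 neuronal and 1 blood and serum miRNA were higher and 0 were lower. The part of any of these lists in the values of the miR-30 arms was not tested. All libraries are labelled as 1 cell line, so the list names do not stand for cell types known to be present. In bulk samples of 1 line, fewer cells that express a miRNA and less of it per cell cannot be told apart.

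Together the 5 guides differed between the groups by less than the spread of libraries. Their summed level was 25201, 20213 and 22179 CPM in RSL3 libraries 1 to 3, against 20668, 22873 and 23195 CPM in DMSO libraries 1 to 3. The groups overlapped, and RSL3 libraries held both the highest and the lowest sum. The means were 22531 ± 2513 CPM in RSL3 and 22245 ± 1375 CPM in DMSO libraries (SD, n = 3 each), a log2 difference of 0.01. The guides took 2.21 ± 0.318% of the listed signal in RSL3 libraries and 2.27 ± 0.11% in DMSO libraries.

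All 7 members passed the filter on low values and rested on 1506 to 63260 reads a library. Of the 7 members 0 passed in limma at an adjusted p under 0.05, and likewise 0 in edgeR and 0 in DESeq2 on the recovered reads. Over all 666 miRNAs tested limma called 0.601% higher and 0.150% lower, while edgeR called 0.901% and DESeq2 6.01% in either direction. At an unadjusted p under 0.05, 1 member was higher in limma and 0 were lower, where 8.86% and 8.41% of all miRNAs were. The groups did not overlap in 2 of the 7 members, both arms of miR-30e, against 24.3% of all miRNAs. The log2 fold change was negative in 3 members, as in 49.8% of all miRNAs. Its median was 0.11 for the 7 members, -0.06 for the 5 guides and 0.00 for all miRNAs tested. Limma's 95% intervals, not adjusted for the number of miRNAs, lay between 0.749-fold and 1.39-fold for all 7 members, so 2-fold changes in either direction lay outside each of them.

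**Figure D1:**
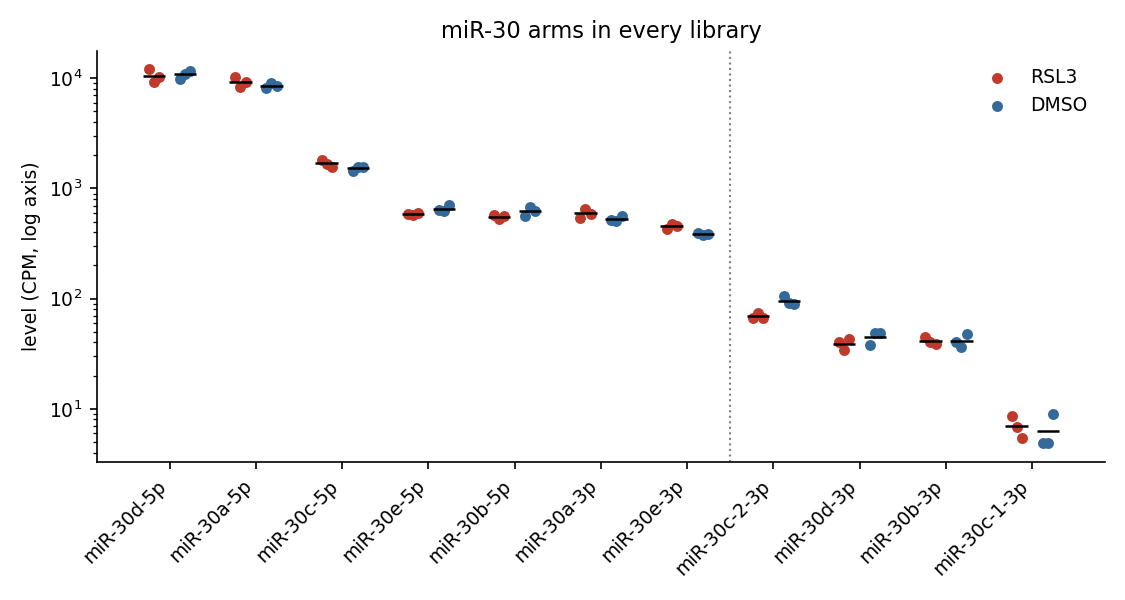
Level of the 11 listed miR-30 arms in CPM on a log axis; each point is a library (RSL3 red, DMSO blue), black bars are group means, and the 7 members stand left of the dotted line. The guides miR-30d-5p and miR-30a-5p reach 12032 and 10192 CPM, while miR-30c-1-3p stays under 10 CPM.

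The most abundant guide was miR-30d-5p, ranked 14 of the 685 miRNAs by mean level. It had 12032, 9179 and 10223 CPM in RSL3 libraries 1 to 3, against 9914, 10994 and 11738 CPM in DMSO libraries 1 to 3. RSL3 library 1 was the highest and RSL3 library 2 the lowest of the 6, and the groups overlapped. The log2 fold change was -0.06 ± 0.13 (SE, limma adjusted p = 0.84), and it was 0.03 without RSL3 library 2.

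Next came miR-30a-5p, the guide known for BECN1 repression in human cells, at rank 18. Its level was 10192, 8259 and 9242 CPM in RSL3 libraries and 8124, 8991 and 8562 CPM in DMSO libraries 1 to 3. Again RSL3 library 1 stood highest, while DMSO library 1 was lowest, with overlap between the groups. Limma gave a log2 fold change of 0.11 ± 0.12 (SE, adjusted p = 0.681). Although the ranges of miR-30d-5p and miR-30a-5p overlapped across libraries, miR-30d-5p was the higher of the pair in 6 of 6 libraries.

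The guide miR-30c-5p, made from both Mir30c genes, was the next in level. Its values were 1818, 1677 and 1563 CPM in RSL3 libraries and 1436, 1580 and 1565 CPM in DMSO libraries 1 to 3. The lowest RSL3 value lay within the DMSO range, and the log2 fold change was 0.14 ± 0.11 (SE, limma adjusted p = 0.535).

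The remaining 2 guides had much lower levels and lay close together. The arm miR-30e-5p, from the Nfyc intron, had 589, 571 and 594 CPM in RSL3 libraries, against 632, 623 and 711 CPM in DMSO libraries 1 to 3. Every RSL3 value was below every DMSO value, by a margin smaller than the range of the DMSO libraries. Its log2 fold change was -0.16 ± 0.11 (SE, limma adjusted p = 0.447). The neighbour of miR-30d, miR-30b-5p, had 569, 527 and 557 CPM in RSL3 libraries, against 562, 685 and 619 CPM in DMSO libraries 1 to 3. RSL3 library 1 reached into the DMSO range, and the log2 fold change was -0.17 ± 0.11 (SE, limma adjusted p = 0.449). The miR-30e-5p level was above that of miR-30b-5p in 5 of 6 libraries, and their ranges overlapped.

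The 3p arms of miR-30a and miR-30e had levels near those of the minor guides. The passenger-side arm miR-30a-3p had 541, 654 and 583 CPM in RSL3 libraries, against 519, 509 and 566 CPM in DMSO libraries 1 to 3. The groups overlapped through RSL3 library 1 and DMSO library 3, with a log2 fold change of 0.15 ± 0.12 (SE, limma adjusted p = 0.515). The other 3p member, miR-30e-3p, had 430, 473 and 461 CPM in RSL3 libraries, against 396, 375 and 383 CPM in DMSO libraries 1 to 3. All 3 RSL3 values lay above all 3 DMSO values. Its log2 fold change was 0.24 ± 0.11 (SE), with an unadjusted p of 0.0449 and a limma adjusted p of 0.269, so it did not pass. The adjusted p was 0.287 in edgeR and 0.235 in DESeq2.

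**Figure D2:**
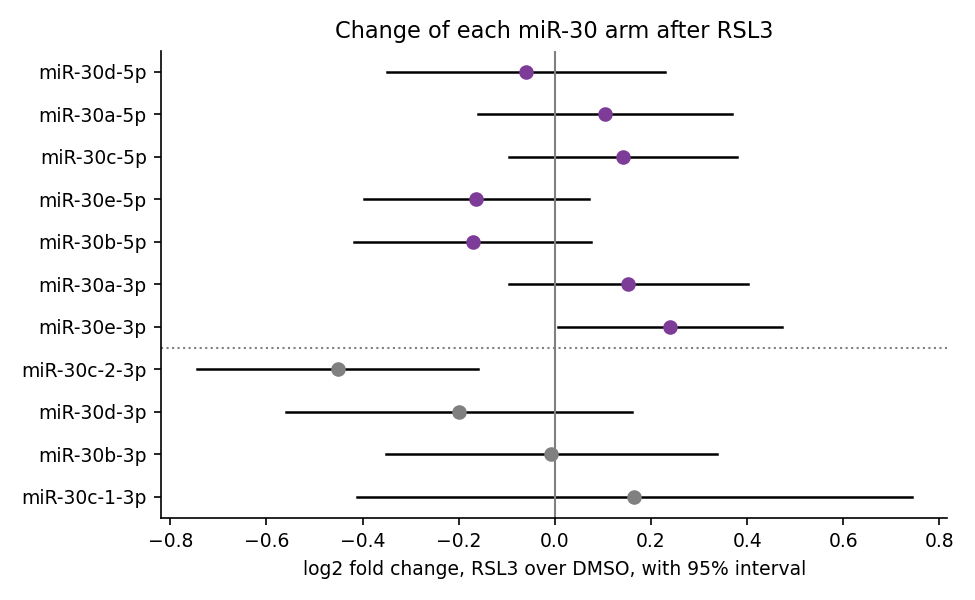
Log2 fold change of each listed miR-30 arm, RSL3 over DMSO, with limma's unadjusted 95% interval as a line; purple points are the 7 members and grey points the other 4 arms. The interval spans 0 in 6 of 7 members, and the arm farthest from 0 is miR-30c-2-3p at -0.45.

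A further 4 miR-30 arms were listed, all 3p passenger arms under 110 CPM. The level of miR-30c-2-3p was 66.1, 73.4 and 67.2 CPM in RSL3 libraries, against 105, 90.8 and 88.6 CPM in DMSO libraries 1 to 3. The groups did not overlap, and the log2 fold change of -0.45 ± 0.14 (SE) had an unadjusted p of 0.00533. It did not pass in limma (adjusted p = 0.0954) or edgeR (adjusted p = 0.0904) and passed in DESeq2 (adjusted p = 0.0402), which called 3.15% of all miRNAs lower. Across 18 alternatives, computed for this arm after its values were seen, its log2 fold change lay between -0.51 and -0.38, and its adjusted p between 0.0402 and 0.411. RefSeq gives it as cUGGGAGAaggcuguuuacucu, with a seed that the guides do not carry. The other copy's arm, miR-30c-1-3p, with the same seed, had 8.64, 6.90 and 5.41 CPM in RSL3 libraries, against 4.86, 4.88 and 9.05 CPM in DMSO libraries 1 to 3, on 22 to 46 reads a library. The last 2 arms were miR-30d-3p at 33.9 to 49.2 CPM, with a log2 fold change of -0.20, and miR-30b-3p at 36.2 to 47.6 CPM, with -0.01. Neither passed in limma, with adjusted p-values of 0.565 and 0.99, and in both the groups overlapped.

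Within the guide pool, the order of the 3 most abundant members was the same in every library, and shares can be read without the library scaling. The groups did not overlap in the shares of 4 of the 5 guides. No background was computed for such shares. The groups were apart in the levels of 24.3% of all miRNAs. They were apart in 31.0% of the ratios between 2 miRNAs with a mean of at least 100 CPM. Reads of miR-30d-5p made up 47.7%, 45.4% and 46.1% of the 5 guides in RSL3 libraries, against 48.0%, 48.1% and 50.6% in DMSO libraries 1 to 3. Those of miR-30a-5p made up 40.4%, 40.9% and 41.7% in RSL3 libraries, against 39.3%, 39.3% and 36.9% in DMSO libraries 1 to 3. Wilson 95% intervals, which cover counting error only, were at most ± 0.4 percentage points wide for these shares. The miR-30d-5p share was thus lower and the miR-30a-5p share higher in every RSL3 library than in every DMSO library, by about 2.5 points in the means (46.4 ± 1.2% in RSL3 against 48.9 ± 1.5% in DMSO for miR-30d-5p; 41.0 ± 0.624% in RSL3 against 38.5 ± 1.38% in DMSO for miR-30a-5p). The nearest miR-30d-5p libraries, RSL3 at 47.7% and DMSO at 48.0%, differed by less than counting error. The pair together held 87.4 ± 1.01% of the pool in RSL3 and 87.4 ± 0.124% in DMSO libraries.

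Among the minor guides, miR-30c-5p held 7.52 ± 0.678% of the pool in RSL3 and 6.87 ± 0.107% in DMSO libraries, with no overlap between groups. The share of miR-30b-5p was 2.46 ± 0.18% in RSL3 and 2.79 ± 0.176% in DMSO libraries, also without overlap, and that of miR-30e-5p 2.61 ± 0.249% in RSL3 and 2.95 ± 0.196% in DMSO libraries, with overlap. The nearest libraries for miR-30c-5p were RSL3 library 3 at 7.05% and DMSO library 1 at 6.95%. For miR-30b-5p they were RSL3 library 2 at 2.61% and DMSO library 3 at 2.67%. In both cases the Wilson 95% intervals of the nearest libraries overlapped. Shares of 1 pool are not independent, since a rise of 1 lowers the others. Of the 10 ratios between pairs of guides, the groups did not overlap in 6, where this held for 31.0% of the 25651 pairs of miRNAs with a mean of at least 100 CPM. The ratio of miR-30c-5p to miR-30b-5p, for example, was 3.20, 3.18 and 2.81 in RSL3 libraries, against 2.56, 2.31 and 2.53 in DMSO libraries 1 to 3. The 10 ratios rest on 5 values a library, they were looked at after the values were seen, and they were given no test.

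**Figure D3:**
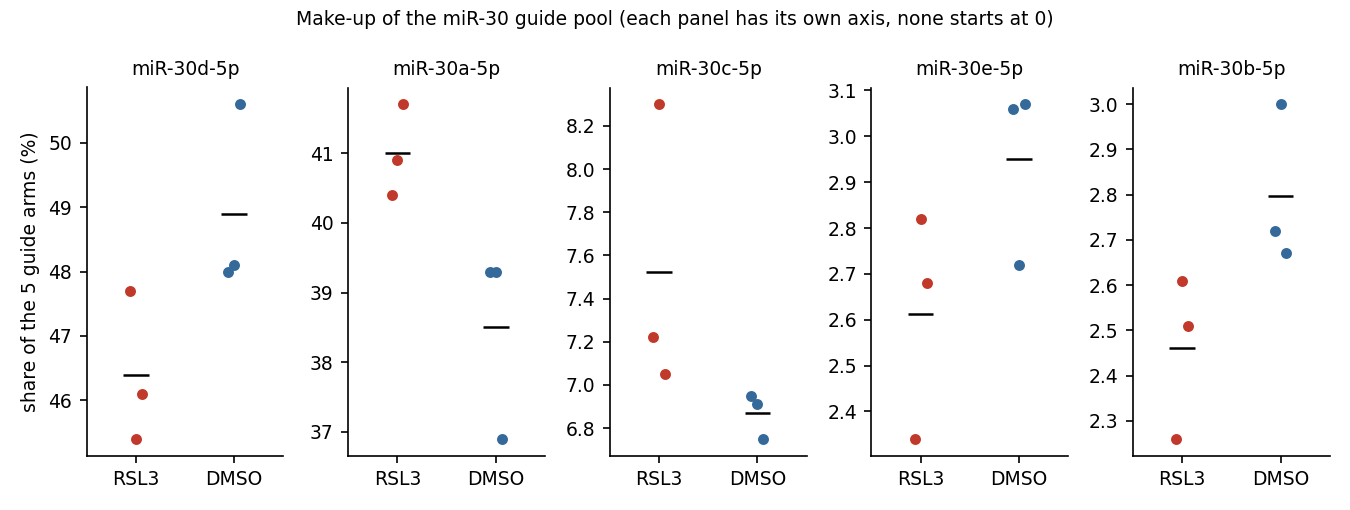
Share of each guide in the reads of the 5 guides, in percent; points are libraries (RSL3 left, DMSO right), bars are group means, and each panel has its own axis that does not start at 0. The groups stand apart for miR-30d-5p, miR-30a-5p, miR-30c-5p and miR-30b-5p and overlap for miR-30e-5p.

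The ratio of mature products separated the groups in 1 of the 3 pairs of neighbouring genes. Ratios did so in 31.0% of the 25651 pairs of miRNAs with a mean of at least 100 CPM. That set leaves out both miR-30c 3p arms, which had lower means. In the chromosome 15 pair miR-30d-5p was 19.0 ± 1.94 times as high as miR-30b-5p in RSL3 libraries and 17.5 ± 1.46 times in DMSO libraries, so the groups differed by less than the spread. In the chromosome 1 pair the ratio of miR-30c-2-3p to miR-30a-3p was 0.122, 0.112 and 0.115 in RSL3 libraries, against 0.202, 0.178 and 0.156 in DMSO libraries 1 to 3. That ratio was lower in all 3 RSL3 libraries, as was the level of miR-30c-2-3p itself. In the chromosome 4 pair the ratio of miR-30e-3p to miR-30c-1-3p was 67.8 ± 17.7 in RSL3 and 66.9 ± 21.4 in DMSO libraries, and the groups overlapped. Here miR-30c-1-3p rested on 22 to 46 reads per library. Adapter joining can favour some small RNAs over others, so ratios between miRNAs describe reads rather than molecules.

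The balance of the 2 arms of a hairpin differed widely within the family. The 3p arm held 0.335% to 0.438% of both arms' reads in miR-30d, 5.02% to 7.29% in miR-30b and 5.04% to 7.33% in miR-30a. The 3p arm of miR-30e was nearer to its 5p arm than these, at 0.539 to 0.828 of the 5p reads, and was the lower in every library. It held 42.2%, 45.3% and 43.7% of the reads of both arms in RSL3 libraries, against 38.5%, 37.6% and 35.0% in DMSO libraries 1 to 3, with Wilson 95% intervals of at most ± 1.7 points. Every RSL3 library lay above every DMSO library. The 3p arms of Mir30a and Mir30e, whose hairpins are printed above, differ at 1 base, and the share of the miR-30a arm did not pass 7.33% in any library.

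On the log2 scale the miR-30e ratio of 5p to 3p was 0.36 ± 0.09 in RSL3 and 0.77 ± 0.11 in DMSO libraries (SD, n = 3 each), a change of -0.40 ± 0.16 (SE). With an unadjusted p of 0.0252 and a limma adjusted p of 0.164 over 182 precursors, it did not pass, and 0 of 4 miR-30 precursors did. Over all precursors 1.65% passed toward the 3p arm and 0% toward the 5p arm, 14.8% reached an unadjusted p under 0.05 toward 3p, and 24.2% had groups that did not overlap. In 12 alternatives the miR-30e change stayed between -0.45 and -0.34, with adjusted p-values from 0.116 to 0.415. The changes were -0.05 for miR-30a, -0.16 for miR-30b and 0.14 for miR-30d, with adjusted p-values of 0.927, 0.692 and 0.700.

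For miR-30c, whose 5p arm has 2 sources, the 3p arms together held 3.95%, 4.57% and 4.44% of miR-30c reads in RSL3 libraries, against 7.11%, 5.71% and 5.87% in DMSO libraries 1 to 3. The RSL3 libraries were all lower, the opposite order to miR-30e. An added fit, chosen after the data were seen, set each 3p arm named by gene copy against its shared 5p arm over 209 precursors, of which 2.39% passed in either direction. There the log2 ratio of miR-30c-5p to miR-30c-2-3p was 4.59 ± 0.15 in RSL3 and 4.00 ± 0.21 in DMSO libraries (SD, n = 3 each). The change of 0.59 ± 0.17 (SE) had a limma adjusted p of 0.0928 and did not pass, and that for miR-30c-1-3p was -0.02 (adjusted p = 0.946).

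**Figure D4:**
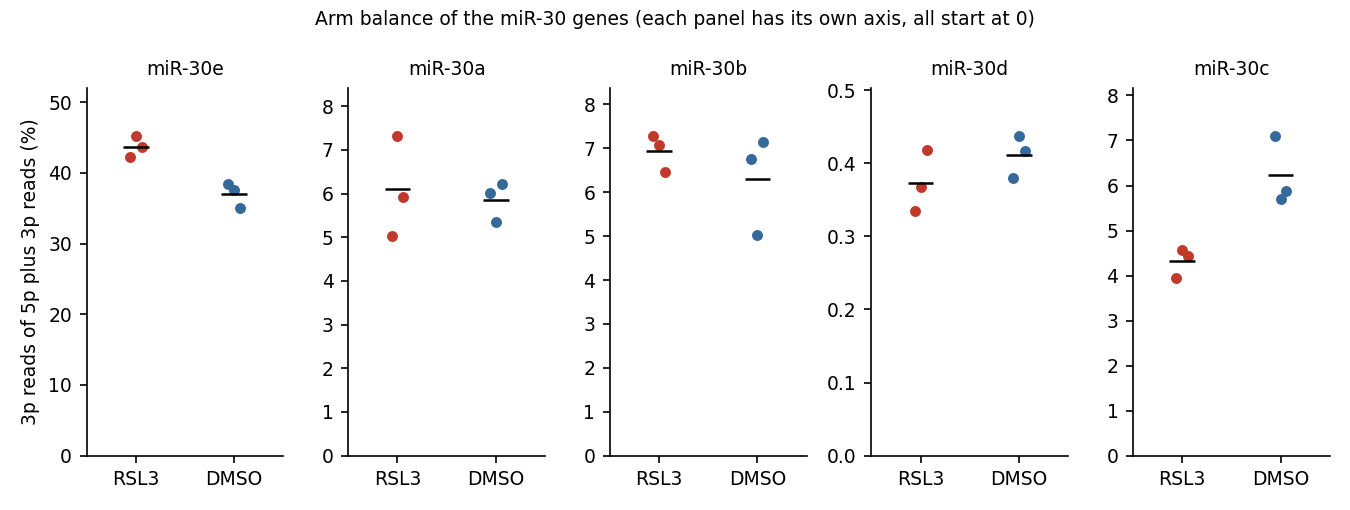
Share of 3p reads among the 5p and 3p reads of each miR-30 gene, in percent, with libraries as points (RSL3 left, DMSO right) and group means as bars; miR-30c sums the 3p arms of both copies. Every axis starts at 0. The groups stand apart in miR-30e, with RSL3 between 42.2% and 45.3%, and in miR-30c, with RSL3 between 3.95% and 4.57%.

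The members varied little between replicates. The within-group SD of log2 levels was 0.06 to 0.16 over the 7 members with a median of 0.11, beside a median of 0.15 over the 227 miRNAs with a mean of at least 100 CPM. It was smallest in miR-30e-3p and largest in miR-30d-5p. The 3 abundant guides miR-30d-5p, miR-30a-5p and miR-30c-5p were all above their own means in RSL3 library 1, by 0.18, 0.20 and 0.18 on the log2 scale, and below them in DMSO library 1, by -0.10, -0.13 and -0.16. In RSL3 library 2 the 5p and 3p arms of miR-30a lay on opposite sides of their means, at -0.10 and 0.22.

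**Figure D5:**
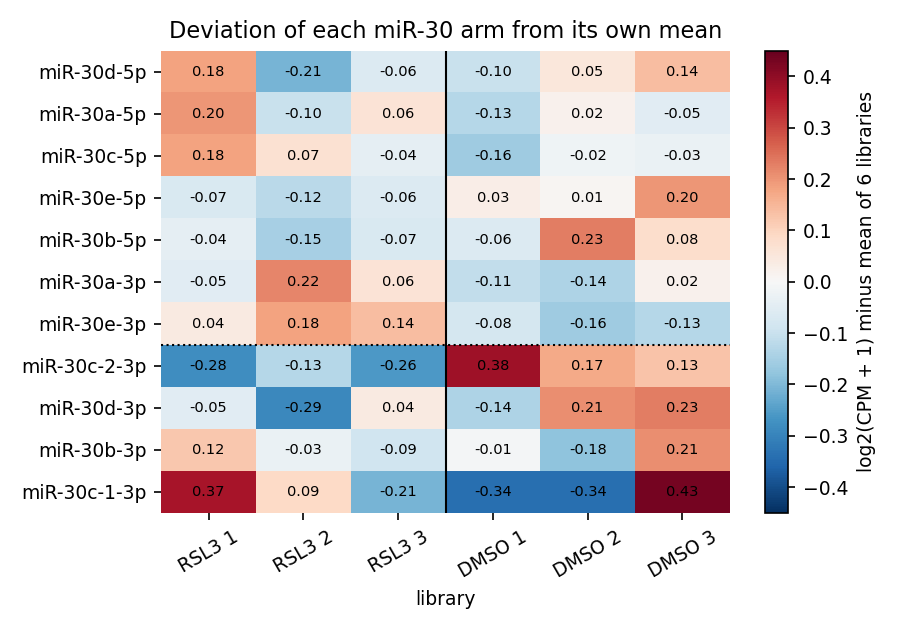
Deviation of log2(CPM + 1) from the arm's own mean over 6 libraries, for the 11 listed miR-30 arms (rows; members above the dotted line) and the libraries (columns; RSL3 left of the line, DMSO right). The 5p and 3p arms of miR-30e have opposite signs in 6 of 6 libraries, and RSL3 library 1 is above the mean for the 3 abundant guides. No background was computed for such signs, and the change in the miR-30e arm ratio did not pass.

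Likeness to the summed guides was measured as the root mean square difference of centred log2 levels over the 6 libraries, among 220 other miRNAs with a mean of at least 100 CPM. The nearest was miR-298-5p at 0.025, followed by miR-106b-3p at 0.068, miR-27b-3p at 0.070, let-7e-5p at 0.072 and miR-669f-3p at 0.072. In miR-298-5p the deviations were 0.21, -0.15 and -0.02 in RSL3 libraries, and those of the guides in the same libraries were 0.17, -0.14 and -0.01. The measure rests on 6 libraries and is given as a description.

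Beside the guides, a list of 23 miRNAs reported to act on autophagy genes in other systems had 18 listed and tested members. Limma called 0 of them, edgeR 0 and DESeq2 0. Of all miRNAs limma called 0.601% higher and 0.150% lower, edgeR 0.901% and DESeq2 6.01% in either direction. The median log2 fold change of the list was -0.03. At an unadjusted p under 0.05 in limma 2 were higher and 0 lower, where 8.86% and 8.41% of all miRNAs were. Those 2 were the paralogues miR-101a-3p, at 2409 ± 207 CPM in RSL3 and 1872 ± 167 CPM in DMSO libraries (limma adjusted p = 0.11), and miR-101b-3p, at 7035 ± 229 CPM in RSL3 and 5800 ± 757 CPM in DMSO libraries (limma adjusted p = 0.252). The other abundant members, miR-25-3p and miR-93-5p, had log2 fold changes of -0.12 and -0.03. In comparison with other guide families, the let-7 guides had 10 negative and 1 positive log2 fold changes with a median of -0.21, where 49.8% of all miRNAs were negative, and the 4 miR-181 guides had 2 of each sign with a median of -0.02. In both families limma, edgeR and DESeq2 called 0, beside the same shares of all miRNAs called as for the autophagy list. At an unadjusted p under 0.05 in limma 3 let-7 guides and 1 miR-181 guide were lower and 0 higher. Of all miRNAs 8.41% were lower and 8.86% higher. The miR-30 guides had 3 negative and 2 positive log2 fold changes. Whether the families differ was not tested.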

How the data were processed

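Small RNA of 15 to 35 nt was sequenced for 50 cycles in 3 libraries each of RSL3-treated and DMSO-treated, retinoic acid-differentiated N2a cells. The deposited files hold a normalised signal per mature miRNA that the authors named CPM. The submitters' processing notes name cutadapt, Bowtie, edgeR and the build GRCm38. Their versions, settings and handling of ambiguous reads are not stated there. Sums per library ran from 949375 to 1068892, so the values are not the plain CPM that the design had assumed. Dividing by the smallest step of each library gave whole read numbers for 100% of values (tolerance 0.01), and reads times edgeR's TMM factor gave each divisor. A change in total miRNA per cell would not be seen. One read equalled 0.157 to 0.314 CPM, so a level of 0 would allow up to 0.470 to 0.941 CPM (3 reads), a bound for counting error alone. Pairs of replicates exceeded counting noise (chi-square divided by its degrees of freedom, 73 to 257), so none was counted as a copy.

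Tests used R 4.3.3 and limma 3.58.1 with a variance trend on log2(CPM + 1), two-sided, with Benjamini-Hochberg adjustment at 0.05 over the 666 miRNAs reaching 1 CPM in at least 3 libraries; such fold changes understate low miRNAs. Arm ratios were log2((5p + 1)/(3p + 1)), with the trend taken on the mean of both arms. edgeR 4.0.16 (quasi-likelihood) and DESeq2 1.42.0 ran on recovered reads as alternatives. In data simulated for the RSL3 against DMSO comparison, 200 miRNAs were changed before the filter on low values, and 645 miRNAs passed that filter. A changed miRNA that failed the filter counted as not found. Limma found 47.8% of the 1.5-fold changes, 76.1% at 2-fold and 90.9% at 4-fold, and 4.03% of its calls were unchanged miRNAs. In the real data it called 4 higher and 1 lower of 666. The Benjamini-Hochberg cut-off is easier to pass when more miRNAs change, so these shares may overstate recovery in this series. Members, lists and alternatives were chosen with earlier results of these data known. The text names all members, the other listed miR-30 arms, the 5 nearest patterns and, of the autophagy list, called members and the 4 most abundant; miR-384-5p was added by its seed. The autophagy, marker, let-7 and miR-181 lists were written from general knowledge. No sample was left out of the main fits.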

Additional observations from a re-analysis of the deposited data

How the results depend on the processing

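Of the 7 members 0 passed under any of the 18 alternatives. The direction held for all of them except miR-30d-5p, at 0.03 without RSL3 library 2 and -0.16 without RSL3 library 1. The arm ratio change of miR-30a was 0.10 without RSL3 library 2 and 0.02 without DMSO library 2 (-0.19 to 0.10 over single omissions), and that of miR-30b ran from -0.27 to 0.00, the last without DMSO library 2. The summed guide level, 0.01 on the log2 scale, was -0.05 in plain CPM, -0.04 after rescaling without the 5 most abundant miRNAs and -0.07 to 0.09 over single omissions.

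Counts over all miRNAs moved more. The 4 higher miRNAs became 2 in plain CPM, 1 with no variance trend, 19 with DESeq2, and 1 to 14 over omissions of single libraries. The 1 lower miRNA became 3 with a filter at 10 CPM, 0 on median centring, 12 on rescaling, 0 with no trend, 2 with edgeR, 21 with DESeq2, and 0 to 12 over omissions. The 3 precursors with a shifted arm ratio became 12 with a pseudocount of 5, 8 with the 10 CPM filter, 5 with no trend, 5 with 3p arms named by gene copy, and 1 to 3 over omissions. Why these counts moved was not tested.

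RSL3 and DMSO libraries of the same number did not deviate together (correlations of -0.35, -0.33 and -0.19 across miRNAs). None correlated best with its own number. Each group was centred on the mean of only 3 libraries, so these correlations cannot decide whether libraries of 1 number shared a culture or batch. The labels do not say whether they did. With the replicate number as a block, the counts were 1 higher, 0 lower and 1 precursor, and of the members 0 passed.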
